A study of Homo sapiens with 4 samples.

Results

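The chromatin around 9 genes of the matrix metalloprotease and plasminogen systems was examined in SKBR3 cells with and without the cytokine TWEAK. The genes were MMP1, MMP3, MMP7, MMP9, MMP10, MMP13, MMP14, PLAU and PLAUR, taken by their names in GENCODE release 44. Peaks of the 4 deposited ATAC-seq lists that overlapped by at least 1 bp were merged into sites, and the 458 sites within 100 kb of any annotated start of these genes were kept, of 307691 sites in all. ATAC-seq marks open chromatin by letting the transposase Tn5 insert adaptors into accessible DNA. SKBR3 is an established breast cancer line with an amplified ERBB2 gene. The protocol shared by all 4 libraries has the cells starved for 8 h in Opti-MEM, a reduced-serum medium. There were 2 untreated libraries and 2 libraries of cells then given TWEAK at 10 ng/ml for 48 h, with the cytokine renewed at 24 h. A single cell line is a limited model of a tumour subtype, and no batch or preparation day is named for any library.

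Matrix metalloproteases are zinc-dependent enzymes that are secreted or held at the cell surface as inactive precursors and that cut collagens, laminins and other components of the extracellular matrix. In the plasminogen system, the urokinase encoded by PLAU is concentrated at the cell surface by its receptor, the PLAUR product, and converts plasminogen into plasmin, which degrades fibrin and can activate metalloprotease precursors. TWEAK, encoded by TNFSF12, acts through the receptor Fn14, and its signalling reaches NF-kB and AP-1, which are families of transcription factors known to bind upstream of several of these genes.

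The comparison asked whether TWEAK altered accessible chromatin near genes of matrix degradation. Each deposited peak carries the negative log10 of a Poisson p-value, from which the pileup of the peak and the background of its list were recovered as whole reads and a common mean. Enrichment here is that pileup divided by the background of the list. Rank percentile is the place of a peak's value within its own list, where 100 is the strongest peak, and a site takes its best peak in each list. The lists held between 195315 and 228644 peaks on chromosomes 1 to 22 and X, with backgrounds between 1.85 and 3.59 reads. The lowest pileups listed were 10 and 7 reads in untreated replicates 1 and 2, and 8 and 7 in TWEAK replicates 1 and 2, so a missing peak does not mean closed chromatin: its pileup can be under that floor, or a stronger peak can be listed in its place, since peaks of a list do not overlap. Promoter peaks of 6 of 7 markers of the line were in all lists at percentiles from 95.8 to 100, ERBB2 among them, and the promoter of CDH1 had no peak in any list. Of 8 markers of immune, endothelial and stromal cells, CD14, VWF, COL1A1 and COL1A2 had a promoter peak in all lists, CD3E and LUM had none, and percentiles ran from 11.2 to 91.1. Their part in the results was not tested.

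The sequences shown are a selection from sites upstream of MMP9 and MMP7, where the largest rises lay, and from a site of PLAUR that held both motifs. Other sites that differed are not shown, among them chr10:73878097-73878686, with a change of -30.4 percentile points. Each is the central 200 bp of the peak with the highest rank, read from hg38 on the plus strand. Capitals mark AP-1 matches, spelled TGACTCA or TGAGTCA, and matches to the NF-kB consensus, searched on both strands. The first is the peak upstream of MMP9 at chr20:46008206-46008405.
MMP9 upstream peak: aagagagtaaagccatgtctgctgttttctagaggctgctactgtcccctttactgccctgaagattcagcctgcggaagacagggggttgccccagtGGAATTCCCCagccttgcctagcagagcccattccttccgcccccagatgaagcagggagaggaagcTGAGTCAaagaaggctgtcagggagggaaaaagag
The next 4 lie upstream of MMP7, at chr11:102603092-102603291, chr11:102599709-102599908, chr11:102572808-102573007 and chr11:102552537-102552736, in order of falling distance from the gene. The first 3 had peaks only with TWEAK, and the site at 21.6 kb had the largest rise in rank of the 189 sites near these genes that had a peak in every list.
MMP7 72.2 kb: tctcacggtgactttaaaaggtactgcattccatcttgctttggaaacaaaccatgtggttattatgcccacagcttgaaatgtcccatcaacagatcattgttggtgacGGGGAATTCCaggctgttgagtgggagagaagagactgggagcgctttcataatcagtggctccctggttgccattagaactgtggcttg
MMP7 68.8 kb: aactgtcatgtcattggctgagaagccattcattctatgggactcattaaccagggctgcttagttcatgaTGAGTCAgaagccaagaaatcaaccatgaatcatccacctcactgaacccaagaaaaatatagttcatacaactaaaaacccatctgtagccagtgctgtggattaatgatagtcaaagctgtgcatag
MMP7 41.9 kb: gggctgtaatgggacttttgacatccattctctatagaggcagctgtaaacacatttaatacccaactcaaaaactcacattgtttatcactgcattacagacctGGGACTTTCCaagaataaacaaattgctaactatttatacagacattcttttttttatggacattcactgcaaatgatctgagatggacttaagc
MMP7 21.6 kb: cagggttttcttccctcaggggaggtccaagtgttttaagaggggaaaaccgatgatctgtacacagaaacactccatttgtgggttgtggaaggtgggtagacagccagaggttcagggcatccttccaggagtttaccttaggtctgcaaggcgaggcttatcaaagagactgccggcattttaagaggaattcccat
The last pair sets a site upstream of PLAUR that rose, chr19:43675492-43675691, beside a site downstream of PLAU that fell, chr10:73920198-73920397, which held neither motif.
PLAUR 4.78 kb: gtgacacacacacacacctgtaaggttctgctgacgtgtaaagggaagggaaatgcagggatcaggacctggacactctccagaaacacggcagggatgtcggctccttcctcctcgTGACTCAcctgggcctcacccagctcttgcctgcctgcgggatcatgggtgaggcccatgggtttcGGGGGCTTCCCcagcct
PLAU 8.88 kb: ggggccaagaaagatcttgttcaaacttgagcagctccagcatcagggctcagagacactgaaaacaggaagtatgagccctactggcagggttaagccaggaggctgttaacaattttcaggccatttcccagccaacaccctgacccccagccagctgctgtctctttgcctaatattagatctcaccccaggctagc

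Taken over all 9 genes, accessibility near these genes moved about as often as elsewhere in the genome. The sites that passed the test were few. Among the 9, the genes closest to them were MMP7, MMP9, PLAUR, MMP13 and PLAU. For 6 of these 8 sites the nearest protein-coding start belonged to a gene among the 9. The lists held 318 and 335 peaks within 100 kb of the genes in the untreated libraries and 323 and 285 in the TWEAK libraries. The groups overlapped, at 326.5 ± 12.02 untreated and 304 ± 26.9 with TWEAK (SD, n = 2 each), a difference of -22.5 peaks (exact permutation test, two-sided, p = 0.667; no p under 0.333 is possible with 2 libraries a group). Per 100000 peaks of a list the means were 149.6 and 146.9, a difference of -2.65. The difference in peaks was 8 peaks when only values of at least 5 were counted, so its sign depended on the threshold.

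Of the 458 sites, 189 (41.3%) had a peak in all 4 lists, against 42.8% of all sites. Gained sites, with a peak in both TWEAK lists and in neither untreated list, numbered 15 (3.28%), against a background of 3.6% of all sites. Lost sites, with the opposite pattern, numbered 18 (3.93%), against 3.79%. Both shares were near the background, and 139 sites (30.3%) had a peak in 1 list only, against 29.2%. The lost sites had pileups from 7 to 18 and the gained sites from 7 to 44. An enrichment of 5 was passed in both untreated lists by 0 of the 18 lost sites and in both TWEAK lists by 7 of the 15 gained sites (46.7%), against 20.02% of all lost and 57.1% of all gained sites, so gained sites were the stronger set across the genome too. The backgrounds of the TWEAK lists, 2.63 and 1.85 reads, differed from those of the untreated lists, 3.59 and 2.24, and the part of depth in this was not tested. A peak of the other treatment lay within 500 bp of 4 of the 15 gained and 7 of the 18 lost sites. When only peaks with a deposited value of at least 5 were used, 14 gained and 5 lost sites were left, at 4.64% and 1.66% of the sites near these genes, against 4.82% and 3.36% of all sites.

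**Figure D1:**
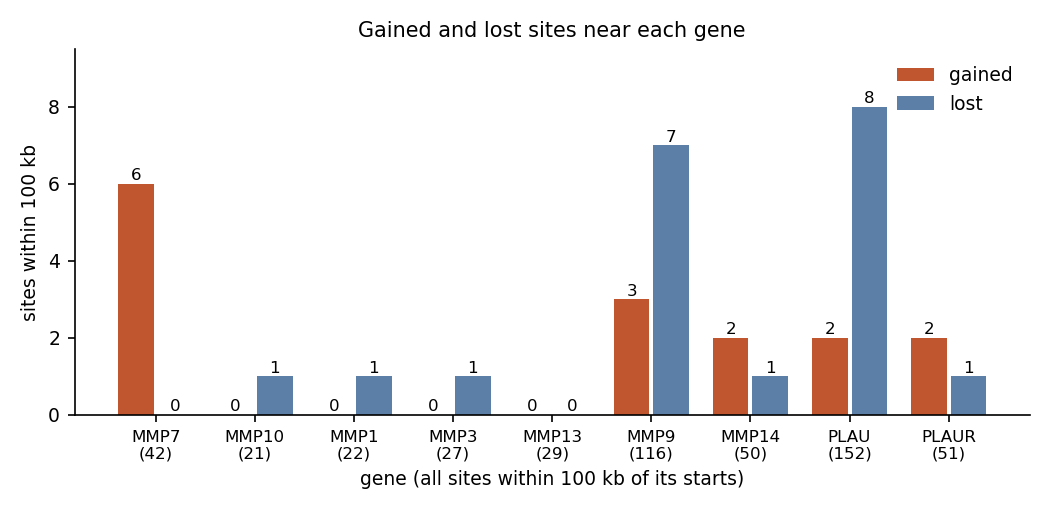
Numbers of gained (red) and lost (blue) sites within 100 kb of the starts of each gene, with the number of all sites near it in brackets; bars start at 0 and a site near several genes is counted for each. MMP7 had 6 gained and 0 lost sites, while MMP9 and PLAU had 7 and 8 lost sites.

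Among the 189 shared sites, rank percentiles were compared with limma over all 131751 sites with a peak in all lists, with Benjamini-Hochberg adjustment over all of them. The test called 8 of the 189 at an adjusted p under 0.05, of which 5 were higher with TWEAK (2.65%, against 2.18% of all shared sites) and 3 were lower (1.59%, against 1.61%). At an unadjusted p under 0.05, 29 of the 189 passed (15.3%, against 20.5% of all shared sites). Both TWEAK percentiles lay above both untreated ones at 38 sites (20.1%, against 15.8% of all shared sites) and below them at 60 (31.7%, against 35.4%). The median change was -0.83 percentile points near these genes and -1.75 over all shared sites. On the enrichment scale the median of all shared sites was itself shifted upward by 0.14 (log2), and there 75 of the 189 sites had both TWEAK values above and 20 had both below, against 34.8% and 12.2% of all shared sites. With that scale in limma, an alternative added after the data were seen, 17 sites near these genes were called, 15 higher and 2 lower, and over all shared sites 10607 were higher and 1503 lower.

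**Figure D2:**
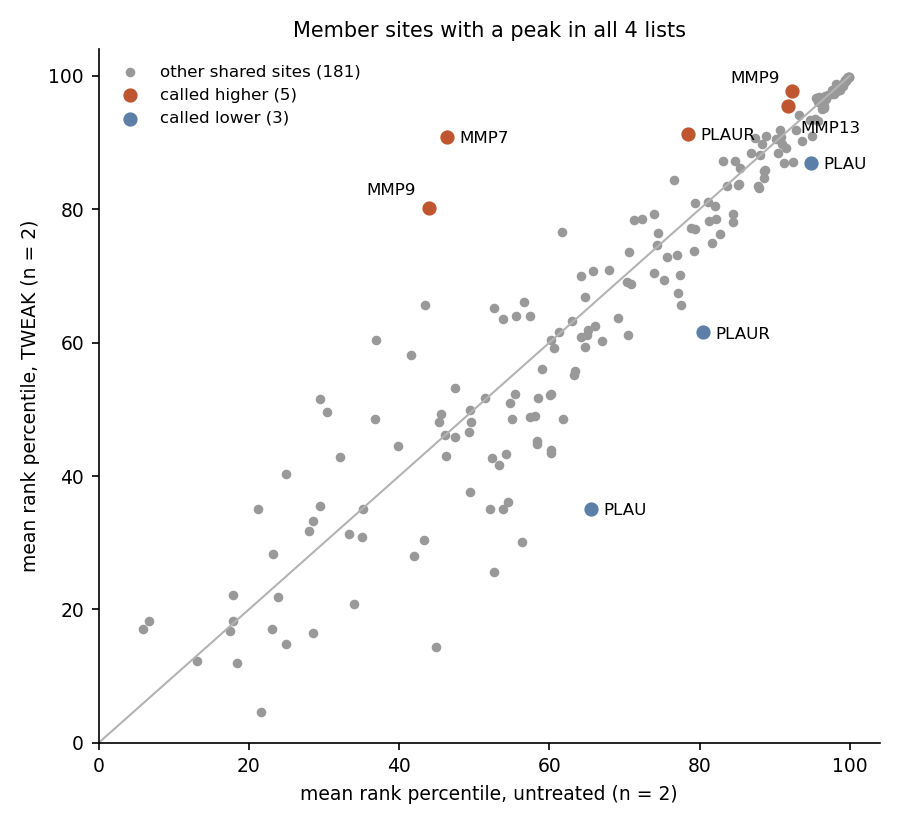
Mean rank percentile of each of the 189 shared sites in the 2 untreated (x axis) and the 2 TWEAK libraries (y axis). Sites called by limma are labelled by the closest of the genes examined, which is not always the nearest protein-coding gene. The line marks equal ranks. The MMP7 site and the MMP9 promoter site lie far above the line, from 46.4 to 90.8 and from 43.9 to 80.2, and the other 6 called sites lie closer to it.

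MMP7 encodes matrilysin, a small secreted protease made mainly by epithelial cells, and its neighbourhood held the largest change. The gene lies on the minus strand at chr11:102520508-102530750. A site 21.6 kb upstream of it, chr11:102552358-102553005, in intergenic sequence, stood at percentiles 38.002 and 54.8 in the untreated libraries and 92.4 and 89.2 with TWEAK. The pileups were 20 and 20 reads against 144 and 93, so both TWEAK libraries were far above both untreated ones. The rise was 44.4 ± 6.05 percentile points (SE; limma with Benjamini-Hochberg adjustment, adjusted p = 0.00681). In enrichment this was 5.58 and 8.95 times the background untreated and 54.7 and 50.4 times with TWEAK, a 6.75-fold change relative to the median of all shared sites. The site was called in all 11 alternatives tried, with adjusted p-values up to 0.0248, and no library decided it, the rise being 36.05 to 52.8 points when each was left out.

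MMP7 also had 6 gained and 0 lost sites among its 42 sites within 100 kb. Of 19962 protein-coding genes, 327 (1.64%) had at least as many gained sites and 61 (0.306%) had as many and no lost one, shares that were worked out after the count for MMP7 was seen. All but 1 of the 6 lay upstream of the gene. The strongest, chr11:102602942-102603452, 72.2 kb upstream, intronic and nearest to a start of MMP20, had pileups of 37 and 44 reads in the TWEAK libraries, at percentiles 65.4 and 73.8. It was the 1 gained site near the 9 genes that lay above percentile 50 of both TWEAK lists (6.67% of the 15, against 16.4% of all gained sites), and no untreated list had a peak within 9445 bp of it.
The next, chr11:102599549-102600059 at 68.8 kb, had 27 and 15 reads, and chr11:102572658-102573161 at 41.9 kb had 28 and 13. At 15.6 kb, chr11:102546321-102546880 had 17 and 15 reads and lay 194 bp from an untreated peak. The remaining 2 were chr11:102539248-102539753 at 8.50 kb, with 18 and 7 reads, and chr11:102453872-102454423 on the other side of the gene at 76.3 kb, close to TMEM123, with 19 and 12. The count of 6 gained sites stood with values of at least 5 and with merging at an overlap of 251 bp, and it was 7 with an enrichment of at least 5, in each case with 0 lost. Without TWEAK replicate 1 there were 11 gained and 0 lost, without TWEAK replicate 2 there were 7 and 1, and without either untreated replicate 7 and 2, but with a list fewer the pattern is also easier to meet, and the lost share of all sites rose from 3.79% to 15.9% and 11.5% when an untreated replicate was left out. No list had a peak within 1 kb of an MMP7 start, so these differences were all at a distance from the gene, and 5 of the 6 also lay within 100 kb of a start of MMP20, which encodes the enamel protease.

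**Figure D3:**
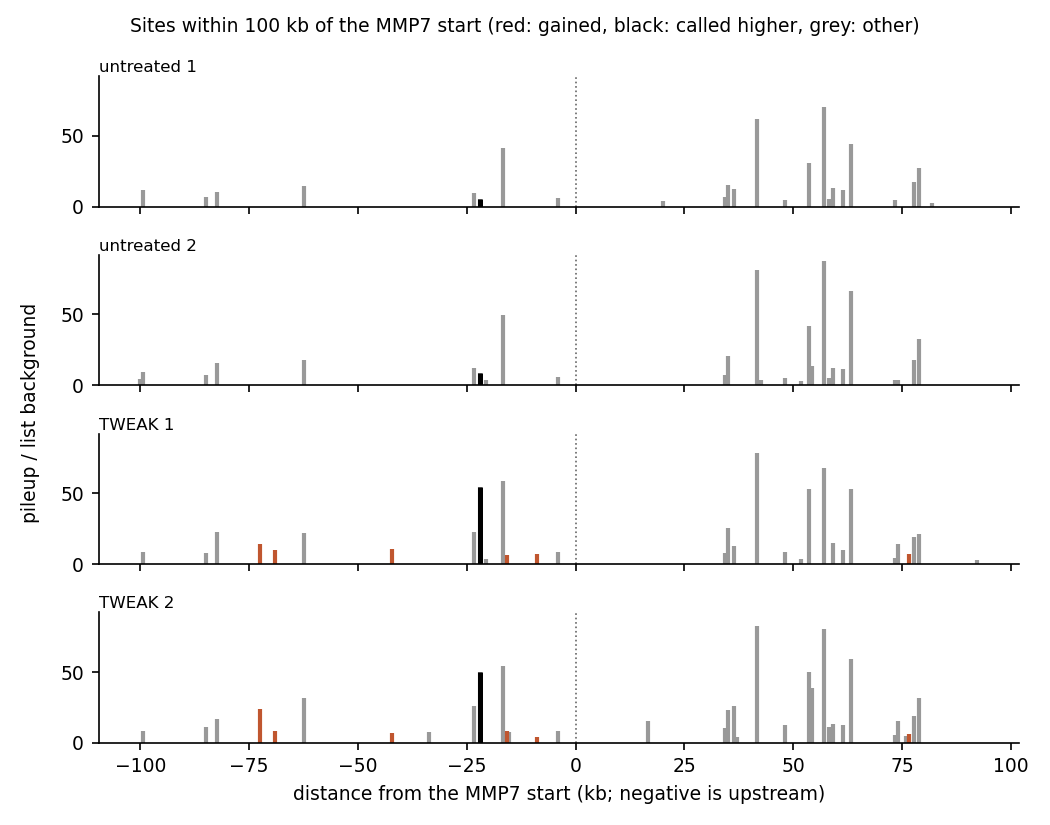
Enrichment (pileup divided by the list background) of the best peak of each site within 100 kb of the MMP7 start, by distance from it, in the 4 libraries. Gained sites (red) appear in the TWEAK panels only, and the called site at 21.6 kb upstream (black) rises from 5.58 and 8.95 untreated to 54.7 and 50.4 with TWEAK.

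The gained sites upstream of MMP7 held matches to both motifs. The NF-kB consensus was matched in the cores of 3 of them, at 72.2, 41.9 and 15.6 kb, and AP-1 in the core at 68.8 kb. Near all 9 genes the NF-kB match was in 4 of 15 gained cores (26.7%) and in 1 of 18 lost cores (5.56%), while 20.04% of all gained sites, 4.26% of all lost sites and 6.19% of all sites held one. AP-1 was in 3 of 15 gained cores (20%) and 2 of 18 lost cores (11.1%), against 16.6% of all gained, 4.87% of all lost and 8.99% of all sites. ETS, searched as AGGAAG on both strands, was in 5 of 15 (33.3%) and 3 of 18 (16.7%), against 22.6% of all gained, 25.4% of all lost and 24.5% of all sites. Shares near the 9 genes were therefore close to those of gained sites elsewhere for NF-kB and AP-1. A match is a description of the letters and not evidence of binding. The called site at 21.6 kb, printed above, held neither the AP-1 nor the NF-kB spelling in its core.

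MMP10, MMP1, MMP3 and MMP13, which lie on chromosome 11 with MMP7, had no gained site within 100 kb. MMP10, or stromelysin 2, had 21 sites, 11 in all lists, 0 gained and 1 lost. Its promoter site, chr11:102780368-102780886, covered the start of the gene in all 4 libraries, with percentiles 67.2 and 80.7 untreated and 79.1 and 79.5 with TWEAK. The groups overlapped, and the change of 5.30 ± 4.42 points did not pass (limma with Benjamini-Hochberg adjustment, adjusted p = 0.543).
MMP1, the interstitial collagenase, had 22 sites, with 0 gained and 1 lost, and promoter sites at both of its start clusters. Its main start, within chr11:102797955-102798494, stood at percentiles 40.2 and 54.8 untreated and 61.2 and 45.3 with TWEAK, and the groups overlapped. The other start, within chr11:102794350-102794859, stood at 60.2 and 57.9 against 66.9 and 45.3. Neither passed (limma with Benjamini-Hochberg adjustment, adjusted p = 0.743 and 0.870).

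MMP3, or stromelysin 1, which can activate other precursors, had 27 sites and no peak within 1 kb of a start in any list. Its 1 lost site, chr11:102829482-102830172, was 8.54 kb from an MMP3 start and weak, with 15 and 7 reads, and is the same site that was counted as lost for MMP1 and MMP10. MMP13, or collagenase 3, also had no promoter peak, and 0 of its 29 sites were gained or lost. An intronic site of MMP13, chr11:102950547-102951188, 4.52 kb inside the gene, was strong in every library, at percentiles 92.2 and 91.4 untreated and 95.5 and 95.5 with TWEAK. Both TWEAK libraries were above both untreated ones by a small amount, 3.66 ± 0.71 points (limma with Benjamini-Hochberg adjustment, adjusted p = 0.0273), or 1.40-fold in enrichment relative to the median of all shared sites. Its core held the AP-1 spelling 11 bp from the centre of the peak. Without TWEAK replicate 2 the call was lost at an adjusted p of 0.103.

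MMP9 encodes gelatinase B, which cuts denatured and type IV collagen, and its promoter was the 1 promoter among the 9 genes whose rank differed by the test. The gene lies on the plus strand at chr20:46008908-46016561 and has 1 annotated start. The merged promoter site, chr20:46008056-46009730, stood at percentiles 44.04 and 43.8 untreated and 77.7 and 82.7 with TWEAK, so the groups were far apart. The rise was 36.3 ± 5.596 points (limma with Benjamini-Hochberg adjustment, adjusted p = 0.0116), and enrichment went from 6.41 and 6.71 to 23.2 and 35.2, or 3.96-fold relative to the median of all shared sites.

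That site is a chain of overlapping peaks 1675 bp long, and the strongest peaks of the 2 groups were not at the same place. In the TWEAK libraries the strongest peaks were centred at -596 and -602 bp from the start, with 61 and 65 reads. In untreated replicate 1 the peaks were centred at -285 bp, with 17 reads, and at 559 bp, with 23. In untreated replicate 2 they were centred at 14 and 572 bp from the start, with 14 and 15 reads, and a further peak of 10 reads at -1215 bp was outside the chain. Near the start itself the TWEAK libraries had 21 and 14 reads, at -5 and 171 bp, so the difference lay in the upstream peak. The peak at -285 bp in untreated replicate 1 overlapped the TWEAK peaks by 190 and 184 bp. Peaks of a list do not overlap each other, so a weaker peak at the TWEAK position could not have been listed beside it. In untreated replicate 2 no listed peak reached that position, and the pileup there is not known from the list.
Where merging asked for an overlap of 251 bp, the upstream peak became a gained site of its own, chr20:46008056-46008562, and it did so too with an enrichment of at least 5 and without untreated replicate 1. In that last setting the rank change of what was left of the site at the start was -3.13 points with an adjusted p of 0.926, and with an enrichment of at least 5 it was 6.73 points with an adjusted p of 0.725. The placement of these peaks was examined after their values were seen.

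**Figure D4:**
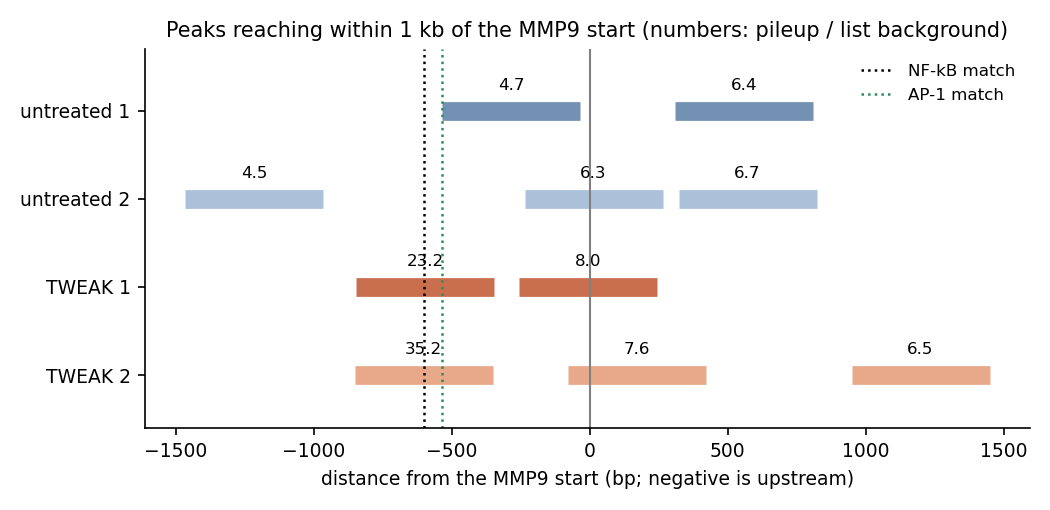
Peaks reaching within 1 kb of the MMP9 start in each library, drawn to scale by distance from the start, with enrichment (pileup divided by the list background) above each peak and dotted lines at the NF-kB and AP-1 matches. The TWEAK peaks centred at -596 and -602 bp have enrichments of 23.2 and 35.2, and no untreated peak is centred there.

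The NF-kB match upstream of MMP9, on the minus strand at chr20:46008304-46008313, was centred 3 bp from the centre of the TWEAK replicate 2 peak, and an AP-1 spelling at chr20:46008371-46008377 was 68 bp from it. The NF-kB match read GGGGAATTCC, the same 10 bases as in the gained site 72.2 kb upstream of MMP7. These bases, looked up after the matches were seen, were in the cores of 2 of the 458 sites near these genes (0.437%), in 0.199% of all sites and in 1.71% of all gained sites. In the same way GGGACTTTCC, matched 41.9 kb upstream of MMP7, was also in the core at the second start of MMP1, where ranks did not differ by the test, and it was in 0.263% of all sites and 2.85% of all gained sites.

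A second site upstream of MMP9 also rose. The site chr20:46004658-46005184, 3.72 kb upstream in intergenic sequence, was strong in every library, at percentiles 91.8 and 92.9 untreated and 97.3 and 98.2 with TWEAK. The change was 5.36 ± 0.68 points (limma with Benjamini-Hochberg adjustment, adjusted p = 0.00526), with pileups of 168 and 127 reads against 234 and 212, and it was called in all 11 alternatives. Its core held neither the AP-1 nor the NF-kB spelling. Across the 116 sites near MMP9, 3 were gained and 7 lost, and the 7 lost sites were all nearest to other genes, namely PCIF1, ZNF335, SLC12A5 and NCOA5. The 3 gained sites had 7 to 10 reads. One of them, chr20:46002289-46003245, was 5.66 kb upstream of MMP9, and another, chr20:46019044-46019744, 10.1 kb downstream of its start and nearest to SLC12A5, held both an AP-1 and an NF-kB match.

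MMP14 encodes a membrane-bound metalloprotease that activates the precursor of gelatinase A, and it had no called site. The gene lies on the plus strand at chr14:22836560-22849041. Its promoter site, chr14:22837054-22837623, was lost by pattern: it had 12 and 14 reads in the untreated libraries, at percentiles 10.3 and 40.8, and no peak with TWEAK. In untreated replicate 1 its value of 3.45 was under 5, so the site was no longer lost when values of at least 5 were required. Of its 50 sites, 20 had a peak in all lists. The 2 gained sites, chr14:22780139-22780756 at the promoter of SLC7A7 and chr14:22807074-22807581 in an intron 29.0 kb from MMP14, had 11 and 8 and then 21 and 18 reads.

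PLAU, which encodes urokinase, was open at its promoter in every library and did not differ there by the test. The gene lies on the plus strand at chr10:73909177-73917496. Its strongest promoter site, chr10:73909041-73909571, had percentiles of 92.0 and 91.0 untreated and 90.2 and 88.1 with TWEAK. Both TWEAK values were below both untreated ones, yet the change of -2.34 ± 1.11 points did not pass (limma with Benjamini-Hochberg adjustment, adjusted p = 0.275), and in enrichment the 4 values were 47.4, 48.3, 46.3 and 47.1. Of the other promoter sites, chr10:73911024-73912067 at the canonical start stood at 61.8 and 59.3 against 65.4 and 52.9, and chr10:73907550-73908233 at 47.4 and 43.8 against 53.2 and 45.3, with the groups overlapping in both.

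Away from its promoter, PLAU had 2 sites that fell. The site chr10:73920030-73920559, 8.88 kb beyond the last start and downstream of the gene's end, stood at percentiles 94.2 and 95.5 untreated and 89.2 and 84.7 with TWEAK. The change was -7.92 ± 1.42 points (limma with Benjamini-Hochberg adjustment, adjusted p = 0.0203), with enrichments of 56.9 and 72.9 against 43.3 and 39.0, and it was called in all 11 alternatives. The site chr10:73878097-73878686, 30.5 kb upstream and nearest to a start of CAMK2G, stood at 63.3 and 67.7 against 32.5 and 37.7. Its change of -30.4 ± 6.84 points was just past the threshold (limma with Benjamini-Hochberg adjustment, adjusted p = 0.0446), and the call was lost when any 1 library was left out, with changes between -33.0 and -27.8 points.
PLAU had 2 gained and 8 lost sites among its 152. The lost sites had 7 to 18 reads, and 3 of them were in introns. A lost site, chr10:73979407-73979923, with 17 and 16 reads, and a gained site, chr10:73980127-73980640, with 18 and 13 reads, lay 204 bp apart at 68 to 69 kb from PLAU and are nearest to VCL. The gained one held the AP-1 spelling 12 bp from the centre of its peak.

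PLAUR encodes the urokinase receptor, which is anchored in the membrane by a lipid, and its promoter was the most open of the 9 genes. The gene lies on the minus strand at chr19:43646095-43670547. Its strongest promoter site, chr19:43668551-43669138, stood at percentiles 98.6 and 98.0 untreated and 98.4 and 97.7 with TWEAK, with overlapping groups and a change of -0.26 ± 0.47 points (limma with Benjamini-Hochberg adjustment, adjusted p = 0.804). The site at the canonical start, chr19:43669645-43670519, stood at 66.0 and 51.0 against 55.8 and 47.4 and did not pass either, with an adjusted p of 0.647 in the same limma fit.

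A site 4.78 kb upstream of PLAUR rose. The site chr19:43675325-43675865, in intergenic sequence, stood at percentiles 82.2 and 74.8 untreated and 91.9 and 90.8 with TWEAK, with 90 and 42 reads against 138 and 103. The change was 12.8 ± 2.39 points (limma with Benjamini-Hochberg adjustment, adjusted p = 0.0233), or 2.26-fold in enrichment relative to the median of all shared sites. Its core held AP-1 20 bp from the centre of the peak and 2 overlapping NF-kB matches 88 and 89 bp from it. Without TWEAK replicate 2 the adjusted p was 0.0587. Further away, chr19:43735948-43736487, 65.4 kb from PLAUR and in an intron nearest to a start of SMG9, stood at 78.6 and 82.2 against 62.1 and 61.0. That change of -18.9 ± 4.25 points was close to the threshold (limma with Benjamini-Hochberg adjustment, adjusted p = 0.0449) and kept its call in 1 of the 4 fits that left out a library.

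**Figure D5:**
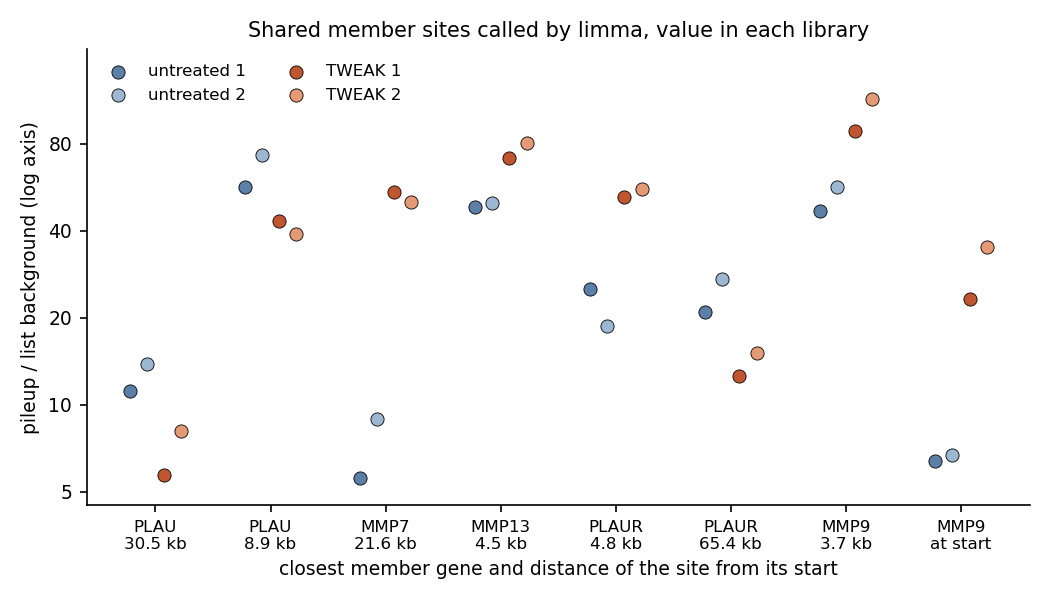
Enrichment (pileup divided by the list background, log axis) of the 8 called sites in each library, ordered by chromosome. Below each are the closest of the 9 genes and the distance from its start. In each of the 8 sites both TWEAK values lie on one side of both untreated values, from a shift of 5.58 and 8.95 to 54.7 and 50.4 at MMP7 to one of 48.2 and 50.1 to 71.4 and 80.7 at MMP13.

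Across the called sites near the 9 genes, AP-1 was in the cores of 3 of the 5 that rose and 0 of the 3 that fell, and NF-kB in 2 of 5 and 0 of 3, where 10.6% and 5.94% of all sites with a peak in all lists held them. These are counts over few sites, and the shares among all shared sites called higher or lower were not worked out. Gained sites across the genome held AP-1 in 16.6% and NF-kB in 20.04%, and lost sites in 4.87% and 4.26%. In the RefSeq promoter table on GRCh38.p14, whose entries span 300 bases around a start, entries for 5 of the 9 genes were found: MMP7, MMP10, MMP14, PLAU and PLAUR. AP-1 was matched in the entries of MMP7, from 67 to 61 bases before the start, and PLAUR, from 186 to 180 bases before it, while 4.95% of 35116 promoters of this length held it. The NF-kB consensus was in none of the 5 entries and in 11.3% of all promoters. Promoter sites whose ranks did not differ by the test also held matches in their cores. At PLAU, NF-kB was in chr10:73909041-73909571 and chr10:73911024-73912067, and AP-1 in chr10:73907550-73908233. The core at the main start of MMP1 held both, and that of MMP10 held neither. The 100 bases upstream of MMP7, at chr11:102530748-102530847, are shown on the gene's own strand with AP-1 in capitals, since the promoter carries the motif without a listed peak in any library.
MMP7 promoter: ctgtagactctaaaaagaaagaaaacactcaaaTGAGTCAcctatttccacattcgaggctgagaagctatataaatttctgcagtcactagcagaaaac

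The promoters of the 9 genes fell into 3 kinds by their peaks. MMP1, MMP9, MMP10, PLAU and PLAUR had a promoter site in all 4 lists, as did 76% of 19962 protein-coding genes. MMP14 had one in the untreated lists, and MMP3, MMP7 and MMP13 had none. In order of their best promoter site, PLAUR stood above 86.7% of the genes with a promoter peak and PLAU above 45.4%, with MMP10 above 19.8%, MMP9 above 9.58% and MMP1 above 7.98%. MMP9 and MMP1 are neighbours in that order and changed places between the groups, with MMP9 below MMP1 in both untreated libraries and above it in both TWEAK libraries. The MMP9 value is that of the merged site, and the change of places came from its upstream peak. Near the MMP9 start the TWEAK peaks stood at 46.8 and 34.6, below the best MMP1 peaks at 66.9 and 45.3. PLAUR lay above PLAU, and PLAU above the other genes, in each of the 4 libraries. MMP10 lay above MMP1 in each library too, and the range of MMP9 overlapped those of both.

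The pattern of the MMP9 promoter over the 4 libraries had few neighbours among 15119 genes. The closest were NOTCH2 at a Euclidean distance of 9.59 percentile points, LCN2 at 13.8 and CYP27A1 at 13.9, and no gene was within 5 points. MMP10 was closest to CREB3L3 at 2.77, PMP22 at 3.82 and FAM171B at 4.17, and MMP1 to NTNG1 at 3.55, AIF1L at 5.197 and PRAME at 5.22. For PLAU and PLAUR the nearest genes carry little information, since 1958 and 4406 genes lay within 5 points of them. RHOBTB1, IGBP1 and ATP5MJ were closest to PLAU. These distances rest on 4 libraries and are descriptions. Those of MMP9 use the merged promoter site, whose best peaks lay at different places with and without TWEAK.

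The remaining metalloproteases, their inhibitors and the other plasminogen genes gave a similar balance. Over a list of 30 such genes there were 1405 sites within 100 kb, 57 of them shared with the 9 genes, and 44 were gained (3.13%) and 53 lost (3.77%), against 3.6% and 3.79% of all sites. More sites were gained than lost at 13 genes and more lost than gained at 10. MMP20 had the most gained sites, 5, all of them also counted among the 6 of MMP7. The next 8 genes had 3 each, among them MMP2, or gelatinase A. MMP16, with 12, TIMP2, with 11, and MMP23B, with 6, had the most lost sites, and MMP16 and TIMP2 also had many sites in all, at 170 and 221. Within 1 kb of a start, a gained site was found at PLGRKT, a plasminogen receptor, and ANXA2, whose product binds plasminogen together with that of S100A10. A lost site was found there at MMP23B and at TIMP1 and TIMP2, inhibitors of metalloproteases. Promoter sites with a peak in all 4 lists numbered 2 at PLGRKT, 3 at ANXA2, 1 at TIMP1, 7 at TIMP2 and 0 at MMP23B. Thus 2 of 30 genes (6.67%) had a gained and 3 of 30 (10%) a lost promoter site, against 6.01% and 7.06% of all protein-coding genes.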

How the data were processed

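ATAC-seq peak lists of 2 untreated and 2 TWEAK-treated SKBR3 libraries were used, with groups taken from the titles. Submitters' processing notes name Trimmomatic, Bowtie2, Picard, MACS2 and hg38; versions, caller settings and any transposase shift of the reads are not given in the sources used here. The authors deposited one list per library, with blacklisted regions removed, peaks of 501 bp and a value read as the uncorrected -log10 p-value of a Poisson test: in each list 100% of the values matched a whole-number pileup over one background, within 0.05 of a step. This value depends on depth, so peaks were compared by presence, by rank within a list and by pileup over background. Depth is known only as that background, between 1.85 and 3.59 reads.

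Sites within 100 kb of any GENCODE release 44 start were used, and promoter sites lay within 1 kb. Rank percentiles were tested with limma 3.58.1 (trend, R 4.3.3) over 131751 sites with Benjamini-Hochberg adjustment, and peak counts by exact permutation. Pileup recovery, site patterns and the fit were also run on simulated data, and the outcome is not given here. Limma SEs and p-values rest on the spread between 2 libraries a group, moderated by a trend fitted over all 131751 sites. They do not measure the spread of a single site alone. The libraries are described in the methods as biological replicates. Named were all 9 genes, gained, lost and promoter sites and sites called by limma, listed genes with a gained or lost promoter site or among the 3 with the most of either, and the 3 genes nearest to each promoter pattern; some of these are not reported here. The genes, lists and tests were chosen with earlier results of these data known. DiffBind, used in the study, needs reads and was not run.

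Libraries with the same replicate number did not deviate together (correlation of deviations from the group means -0.00606, 2 pairs). Alternatives were other distances, starts, thresholds, merging rules, value scales, a replicate block and leaving out each library.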

Additional observations from a re-analysis of the deposited data

How the results depend on the processing

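Within 50 kb there were 240 sites near the 9 genes, 105 of them in all lists, 8 gained, 7 lost, 23 with both TWEAK ranks above and 28 with both below. Where a listed gene had to be the nearest one, these were 108, 54, 3, 3, 15 and 12. Ranks above and below were then 21.9% and 26.7% of the shared sites within 50 kb, and 27.8% and 22.2% where the gene had to be nearest, which turned the balance, against 15.8% and 35.4% of all shared sites. With values of at least 5 there were 302 sites and 5 lost, and with an enrichment of at least 5, a setting added after the data were seen, 300, 3 lost (1%, against 2.33% of all sites), 57 above and 31 below, which turned the balance of 38 and 60 as it did over all shared sites (30.2% above and 19.7% below). The difference in peaks per library, TWEAK minus untreated, then turned to 8 (exact permutation test, p = 0.667) and 25.5 (p = 0.333, the smallest possible); leaving out a library gave -41.5 to -3.5. Leaving out each library in turn, with the lists merged again, gave 25 to 52 gained sites and 32 to 63 lost sites, since a pattern then needs fewer lists (5.81 to 11.8% and 7.24 to 14.6% of the sites near these genes, against 6.54 to 11.6% and 6.56 to 15.9% of all sites), 47 to 70 ranks above and 81 to 106 below (24.0 to 34.2% and 38.4 to 53.3% of the shared sites near these genes, against 20.2 to 31.4% and 42.02 to 57.6% of all shared sites), and 4 to 12 called sites. Without TWEAK replicate 2 there were 4 (1.90%, against 1.60% of all shared sites), and without TWEAK replicate 1 there were 12 (6.03%, against 6.39%), 5 higher and 7 lower. Limma called 14 sites on normal scores, 13 on log2 values and 17 on log2 enrichment, which held 8, 8 and 7 of the 8. These were 7.41%, 6.88% and 8.99% of the 189 shared sites, against 10.6%, 9.69% and 9.19% of all shared sites. With the replicate number as a block 12 were called (6.35%, against 7.90%), the 8 among them, 5 higher and 7 lower, against 4692 and 5717 over all shared sites, and the pairing check gave no reason to prefer it. When each library was left out, the change of the MMP9 promoter site ranged from -3.13 points, without untreated replicate 1, where the merged site is shorter, to 42.2. Motif counts in whole peaks were 5 of 15 for AP-1 in gained sites (33.3%, against 21.6% of all gained sites), and 2 of 18 for NF-kB and 8 of 18 for ETS in lost sites (11.1% and 44.4%, against 10.6% and 49.2% of all lost sites). The floors of 7 to 10 reads limit what the absence of a peak shows, and with 2 libraries a group no permutation of labels can pass 0.05.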
